A study of Mus musculus with 18 samples.

Results

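The proteasome is the multi-subunit protease that breaks down proteins tagged with ubiquitin. Its genes were followed here in the tibialis anterior (TA) muscle of mice with cancer cachexia, the wasting of muscle and fat that accompanies many tumours. All protein-coding genes whose symbols begin with Psma, Psmb, Psmc, Psmd, Psme, Psmf or Psmg and a number were taken, together with Adrm1 and Pomp. That gave 52 genes among the 54199 genes of the annotation found in the files, and 50 of them passed the filter on low counts.

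The libraries form 9 groups of 2, at endpoint. In the LLC tumor group, C57BL/6 mice carried LLC cells, a line of Lewis lung carcinoma, injected into muscle, and their controls received PBS. In the KPCML1 tumor and KPC tumor groups, C57BL/6 mice were injected orthotopically with 1000 KPCML1 cells or 50000 KPC cells, and both are set against the same Matrigel-injected C57BL/6 controls. These cell numbers are those of the sample labels, and the name of one of the authors' deposited tables carries a number of cells that matches neither. CD2F1 mice of the C26 tumor group carried C26 cells, a line of colon carcinoma, under the skin, and their CD2F1 controls received PBS. The KPP tumor group, on C57BL/6, is a genetic model in which tamoxifen induces the tumour, with controls of the same model that had no tumour. The labels name neither its alleles nor the ages of the mice, nor whether its controls received tamoxifen. The label C26 goes with another strain, so strain and experiment cannot be told apart. Libraries held 22432866 to 36471404 assigned fragments. Markers of muscle fibres summed to 82410 to 141500 TPM (transcripts scaled to their length and to the library) in tumour libraries and 104500 to 126400 TPM in control libraries.

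In the proteasome, a barrel called the 20S core, made of alpha and beta rings, holds the cutting sites, and a 19S cap recognises ubiquitin, unfolds the substrate and feeds it in. Cells under interferon can replace the cutting beta subunits by immunoproteasome subunits, and other caps (the activators) or an inhibitor can take the place of 19S. In wasting muscle, higher mRNA of proteasome subunits is a textbook feature of the atrophy programme, which FoxO transcription factors and the factor Nfe2l1 are known to drive.

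Adrm1 and Psmd4, the ubiquitin receptors of the cap, and Psmb5 and Psmb6, cutting subunits of the core, are the members whose promoters are shown. They were chosen after their values were seen, because both receptors were among the genes that rose most and the cutting subunits were among the core subunits that moved least. Capitals mark a match to TGACNNNGC, the core of the antioxidant response element that Nfe2l1 and Nfe2l2 bind, except in Psmd4, where they mark GAAANNGAA, the core of the interferon-stimulated response element, on the reverse strand. Sequences are RefSeq, build GRCm38.p6, on the strand of the gene, without bases that annotated exons cover.
Adrm1 promoter, chr2:180171401-180171460, plus strand: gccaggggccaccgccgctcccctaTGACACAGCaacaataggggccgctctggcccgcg
Psmd4 promoter, chr3:95042659-95042718, minus strand: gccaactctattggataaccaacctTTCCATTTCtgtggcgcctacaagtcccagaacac
Psmb5 promoter, chr14:54618023-54618067, minus strand: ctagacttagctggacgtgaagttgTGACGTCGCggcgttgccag
Psmb6 promoter, chr11:70525323-70525356, plus strand: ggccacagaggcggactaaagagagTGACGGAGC

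Of the 52 genes, 44 had 47 RefSeq windows from 250 bases before to 50 bases after a start. On either strand, TGACNNNGC was in 14.9% of these windows and in 12.4% of all 32851 windows. The other letters searched were CCAAT (34.0% of the members' windows and 37.4% of all), GAAANNGAA (17.0% and 8.56%), TTCNNNGAA, the core of the interferon-gamma activated site (6.38% and 8.30%), and GTAAACA, a FoxO site (0% and 3.65%). TGACNNNGC was in windows of 7 members, 47 and 9 bases before the start in Psmb5 and Psmb6 and 162 bases before in Adrm1. Their mean log2 fold changes of tumour over control were 1.32 for Adrm1, 0.66 for Psmc6, 0.61 for Psmd12, 0.34 for Psmb6, 0.24 for Psmb5, -0.04 for Psmd9 and -0.04 for Psme4. A match describes these letters only.

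Together the 52 genes took a larger share of every tumour library than of any control library. The share was 0.822% and 0.889% of fragments in the LLC tumor libraries, against 0.436% and 0.438% in the LLC control libraries. KPCML1 tumor libraries stood at 0.551% and 0.827% and KPC tumor libraries at 0.750% and 0.635%, against 0.433% and 0.428% in the Matrigel control libraries. C26 tumor libraries stood at 0.707% and 0.971%, against 0.414% and 0.403% in the C26 control libraries, and KPP tumor libraries at 1.17% and 0.868%, against 0.441% and 0.478% in the KPP control libraries. The 2 libraries of the KPP tumor, KPCML1 tumor and C26 tumor groups lay far apart (SD of 0.211, 0.195 and 0.187 percentage points), and the 8 control libraries lay close together. Mitochondrially encoded transcripts were a smaller share in tumour groups (means of 8.48 to 14.5%) than in control groups (means of 18.02 to 21.1%). With them left out, tumour libraries still lay above control libraries, at 0.621 to 1.32% against 0.485 to 0.617%.

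**Figure D1:**
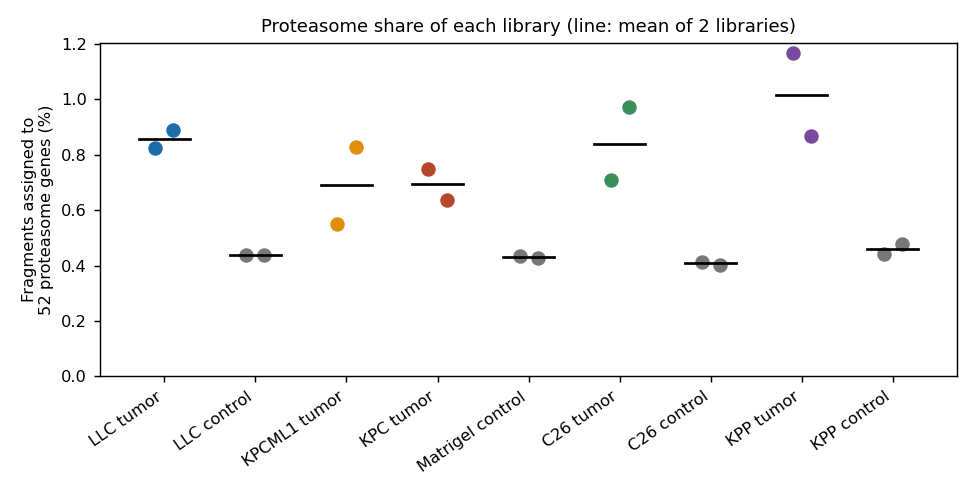
Percent of the fragments of each library assigned to the 52 proteasome genes, by group, with a line at the mean of 2 libraries. All 10 tumour libraries, coloured, lie between 0.551% and 1.17%, above the 8 control libraries, grey, at 0.403% to 0.478%.

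Averaged over the 5 models, 33 of the 50 tested members rose and 3 fell in tumour-bearing mice (edgeR's quasi-likelihood test, Benjamini-Hochberg adjusted p under 0.05), where 25.2% of all 16096 tested genes were called higher and 25.7% lower. This mean tumour effect weights the 5 models equally and uses the Matrigel controls for both KPC models. The median log2 fold change was 0.57 over the tested members and -0.01 over all tested genes. Every cap subunit among the members rose, 18 of 18, with a median log2 fold change of 0.89, and so did 12 of the 14 constitutive subunits of the core, with a median of 0.60. Of the 8 assembly chaperones 1 rose, and their median was -0.02. Immunoproteasome subunits had 2 of 3 lower, and among the 4 activators 1 rose and 1 fell. Of the 36 calls, 33 held with each library left out in turn. The exceptions were Psmb6, Psmb9 and Psme3, each given later with the libraries on which it rests. Markers of other cells moved as well: 6 of 6 erythroid, 5 of 6 neutrophil and 3 of 8 leukocyte markers were higher, and 3 of 5 fibroblast, 3 of 4 tendon and 3 of 4 endothelial markers lower, in the same effect. Of the 8 muscle fibre markers 1 was higher (Myh1) and 3 were lower (Pvalb, Mylpf and Acta1), of the 4 Schwann cell markers 1 was higher and 1 lower, and none of the 4 adipocyte markers was called. The adipocyte markers went in opposite directions by model. Their median log2 fold change was 2.41 in LLC, 2.65 in KPCML1 and 1.64 in KPC, but -2.31 in C26 and -3.69 in KPP. No erythroid marker was called in C26 or in KPP (medians of -0.49 and 1.04). Summed erythroid markers were 576 to 20940 TPM in tumour libraries and 692 to 1837 TPM in control libraries, and their part in the counts was not tested. In whole muscle, fewer cells of a type and less RNA per cell cannot be told apart.

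**Figure D2:**
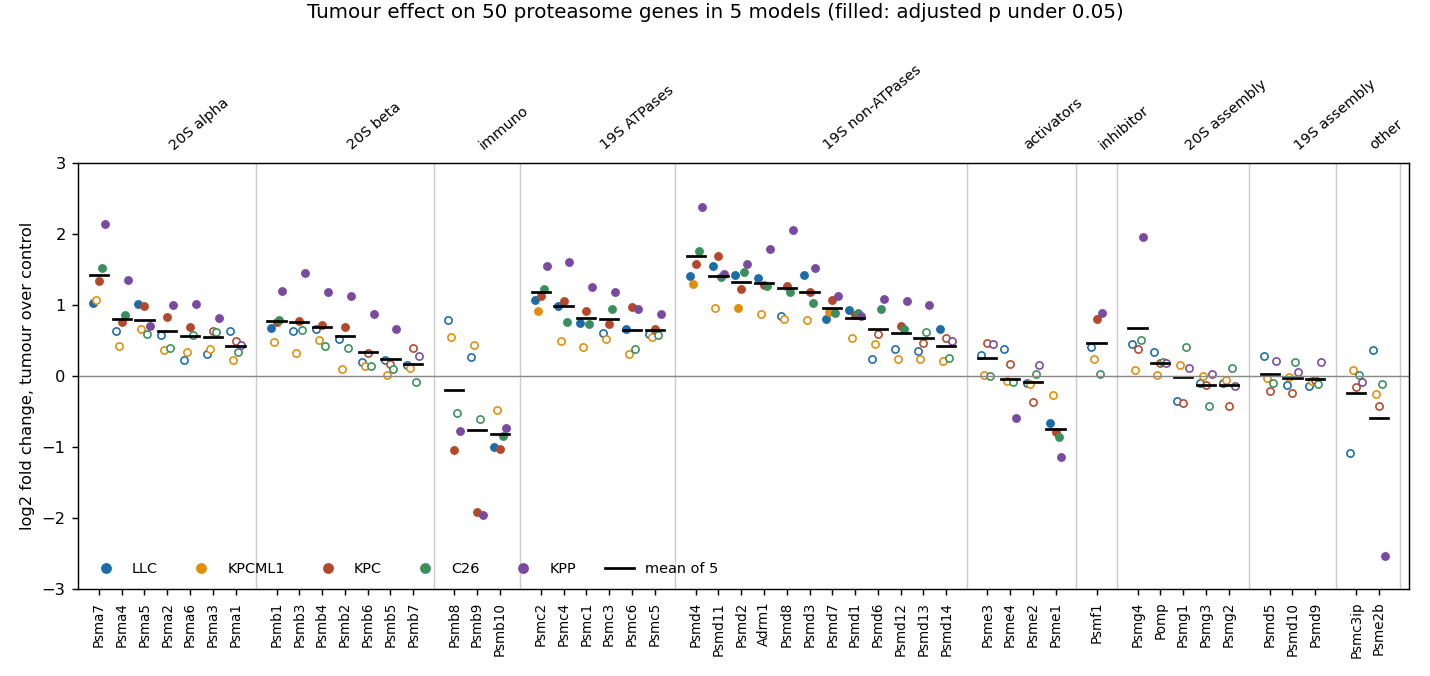
Log2 fold change of tumour over control for the 50 tested proteasome genes, grouped by class and ordered by the mean of the 5 models (black line), with 1 point per model, filled where the adjusted p was under 0.05. Cap and constitutive core subunits lie above 0 in each model, up to 2.39 for Psmd4 in KPP, except Psmb7 in C26 at -0.09, assembly chaperones lie near 0 except Psmg4 in KPP at 1.96, and Psmb10 and Psme1 lie below 0 in each of the 5 models.

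Model by model, the number of members called differed. KPP tumor muscle had 31 members higher and 6 lower (background 17.4% and 19.3% of all tested genes), and KPC tumor muscle 25 higher and 4 lower (15.3% and 13.7%). C26 tumor muscle had 17 higher and 2 lower (11.5% and 9.8%), LLC tumor muscle 15 higher and 2 lower (7.39% and 6.23%), and KPCML1 tumor muscle 4 higher and 0 lower (4.16% and 4.38%). At an unadjusted p under 0.05, 16 members were higher and 1 lower in KPCML1, and DESeq2 called 9, all higher. No share of all genes at that threshold or under DESeq2 is set beside these counts, so they cannot be compared with a background. In KPP, all 4 endothelial markers were lower too. Median log2 fold changes of the members were 0.88 in KPP, 0.65 in KPC, 0.42 in C26, 0.49 in LLC and 0.32 in KPCML1. Cap subunits called higher numbered 17 of 18 in KPP, 15 in KPC, 14 in C26, 12 in LLC and 4 in KPCML1. Of the 14 constitutive core subunits 12 were called in KPP, 9 in KPC, 3 in C26 and 3 in LLC, and 4 were higher at an unadjusted p under 0.05 in KPCML1 without passing the adjustment. With 2 libraries a group, single libraries moved these totals. A fit with 1 library less leaves 1 in its group, and in C26 calls over all genes fell where those of the members fell. The moves below therefore do not single out the proteasome genes. The 37 calls of KPP became 21 without KPP control 1. The 29 of KPC became 17 without Matrigel control 1, 9 without Matrigel control 2 and 18 without KPC tumor 2. The 19 of C26 became 7 without either control library and 4 without C26 tumor 2. The 17 of LLC became 1 and 9 without LLC control 1 and 2, and 9 and 5 without LLC tumor 1 and 2. The 4 of KPCML1 became 0 without either Matrigel control or without KPCML1 tumor 2, and 8 without KPCML1 tumor 1. With library totals instead of TMM, the median log2 fold change of all genes stood at -0.15 in KPC, -0.09 in KPP, 0.28 in C26, 0.25 in LLC and 0.18 in KPCML1 (-0.04 to 0.04 with TMM). In that order, 22, 36, 30, 27 and 10 members were then called. Over all 16096 tested genes the calls numbered 4163, 5479, 3929, 2576 and 1354.

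Psmd4, a ubiquitin receptor of the cap on chromosome 3 (95032694 to 95042614, GRCm38), rose most in the mean effect. Its normalised counts were 336 and 381 CPM (counts scaled to the normalised library size) in LLC tumor libraries, against 129 and 140 CPM in LLC control libraries. They were 240 and 432 CPM in KPCML1 tumor and 453 and 362 CPM in KPC tumor libraries, against 141 and 132 CPM in Matrigel control libraries. C26 tumor libraries had 375 and 494 CPM, against 127 and 130 CPM in C26 control libraries. The highest values were 1018 and 719 CPM in KPP tumor libraries, against 133 and 199 CPM in KPP control libraries. No tumour library overlapped any control library. The log2 fold change over the 5 models was 1.69 ± 0.14 (SE), with an edgeR adjusted p of 7.9e-07. By model it was 1.42 in LLC, 1.30 in KPCML1, 1.58 in KPC, 1.76 in C26 and 2.39 in KPP, each with a SE of 0.28 and each called. The calls in LLC (without LLC control 1) and in KPCML1 (without either Matrigel control or KPCML1 tumor 2) did not hold with 1 library less.

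Other cap subunits without ATPase activity followed. Psmd2, the large scaffold that docks ubiquitin-carrying shuttles, ranged over 440, 734 and 960 CPM (lowest, median and highest) in the 10 tumour libraries, against 227, 270 and 318 CPM in the 8 control libraries. Its mean log2 fold change was 1.33 ± 0.11 (SE; edgeR adjusted p = 8.1e-07), and the groups did not overlap. Adrm1, a ubiquitin receptor that also anchors the deubiquitinase Uchl5, ranged over 134, 233 and 402 CPM in tumour libraries, against 73.9, 90.6 and 104.5 CPM in control libraries (1.32 ± 0.13 SE; adjusted p = 3.4e-06). Psmd11, a lid subunit that helps clamp the cap to the core, ranged over 119.5, 189 and 315 CPM in tumour libraries, against 67.9, 73.4 and 91.4 CPM in control libraries (1.41 ± 0.15 SE; adjusted p = 5.3e-06). For these 3 genes, too, each tumour library lay above each control library. The lid subunits Psmd3 (1.19 ± 0.13 SE) and Psmd8 (1.24 ± 0.16 SE) rose by similar amounts. Smallest in this class was Psmd14, the deubiquitinase that strips ubiquitin from arriving substrates, at 0.43 on the log2 scale. All 12 members of the class were called higher in the mean effect.

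The ring of 6 ATPases, which unfolds substrates, rose as a whole in the mean effect, between 0.65 (Psmc5) and 1.18 (Psmc2) on the log2 scale. Psmc2 ranged over 176, 266 and 478 CPM in tumour libraries, against 111, 120 and 168 CPM in control libraries. Its groups did not overlap, and its mean log2 fold change was 1.18 ± 0.12 (SE; edgeR adjusted p = 3.5e-06). By model Psmc2 stood at 1.56 in KPP, 1.23 in C26, 1.13 in KPC, 1.08 in LLC and 0.92 in KPCML1.

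All 7 alpha subunits tested, which form the gate of the core, rose in the mean effect, from 0.43 for Psma1 to 1.42 for Psma7. Psma7 ranged over 146, 277 and 645 CPM in tumour libraries, against 92.2, 108 and 142 CPM in control libraries, with no overlap, and its mean log2 fold change was 1.42 ± 0.16 (SE; edgeR adjusted p = 9.6e-06). On a scale per transcript length, Psma7 had a median of 467 TPM in tumour libraries and 150.0 TPM in control libraries, the highest of the alpha ring among tumour libraries. Psma2 had the lowest medians of the ring, 66.5 TPM in tumour libraries and 35.8 TPM in control libraries. Psma3 carries a caveat: a median of 47.5% of its fragments were assigned to protein-coding transcripts, the rest to transcripts annotated with retained introns or nonsense-mediated decay. Its log2 fold change was 0.56 ± 0.12 with all transcripts and 0.49 ± 0.12 with coding ones (SE; edgeR adjusted p = 0.0014 and 0.0043).

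The beta subunits moved unequally, and the difference between catalytic and non-catalytic ones was not tested. Its 4 non-catalytic subunits, Psmb1 to Psmb4, rose in the mean effect between 0.57 (Psmb2) and 0.78 (Psmb1). The 3 that carry the cutting sites moved less in that effect, though in KPCML1 Psmb2 (0.10) stood below Psmb6 (0.14). Psmb5, the chymotrypsin-like subunit, ranged over 60.0, 139 and 223 CPM in tumour libraries, against 58.6, 115 and 139 CPM in control libraries (0.24 ± 0.10 SE; edgeR adjusted p = 0.072). Psmb7, the trypsin-like subunit, ranged over 206, 315 and 461 CPM, against 224, 260 and 347 CPM in control libraries (0.17 ± 0.13 SE; adjusted p = 0.30). Psmb6, the caspase-like subunit, ranged over 127.5, 183 and 309 CPM, against 118.5, 139.8 and 170 CPM in control libraries, and was called (0.34 ± 0.10 SE; adjusted p = 0.014). Without Matrigel control 1, Psmb6 stood at 0.29 with an adjusted p of 0.074. Of the single models, KPP called Psmb5 (0.66 ± 0.21) and Psmb6 (0.88 ± 0.21), and neither call held without KPP control 1, without KPP tumor 1 or with the KPP libraries alone. For all 3 catalytic subunits the tumour and control libraries overlapped in CPM. On the TPM scale Psmb5 and Psmb7 overlapped too, but Psmb6 did not, at 279 to 500.5 TPM in tumour libraries and 212 to 260 TPM in control libraries. In TPM, Psmb7 and Psmb6 had medians of 379 and 386 TPM in tumour libraries, against 274 and 240.4 TPM in control libraries, where they were the highest of all members. The order in tumour libraries was different: Psmd4 (487 TPM), Psmd8 (468 TPM), Psma7 and the ATPase Psmc3 (392 TPM) stood above both.

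Psmb5 also differed between experiments. In the C26 experiment it had 60.0 and 68.7 CPM in tumour libraries, against 60.9 and 58.6 CPM in control libraries. In the C57BL/6 experiments the lowest value was 95.3 CPM, in KPCML1 tumor 1. In CPM, all 4 CD2F1 libraries thus lay below all 14 C57BL/6 libraries, whatever the tumour. In TPM they did not: C26 tumor 2 had 171.9 TPM, against 170.9 TPM in KPC tumor 2 and 162.9 and 169.5 TPM in Matrigel control libraries. Among control libraries, Psmd4 above showed no such gap, but some other members did. Psmd9 had 14.7 and 14.9 CPM in C26 control libraries, against 19.1 to 21.3 CPM in the other control libraries. For Psmd8 the values were 145 and 149 CPM, against 174.5 to 255.5 CPM. Psmg4 was higher in C26 control libraries instead, at 7.68 and 9.08 CPM, against 3.47 to 5.84 CPM. The role of the strain was not tested.

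**Figure D3:**
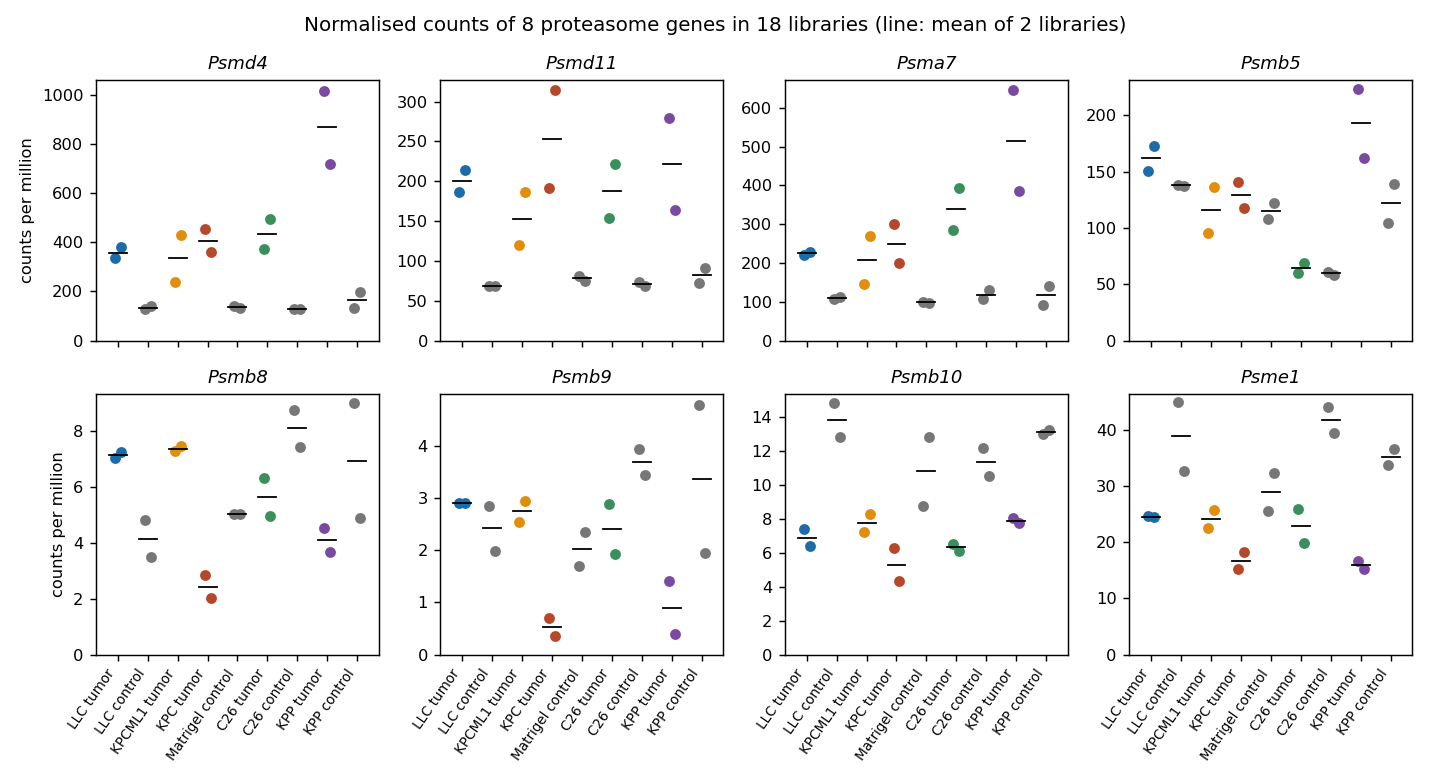
Normalised counts (CPM, linear axes from 0) of 8 proteasome genes in the 18 libraries, with a line at the mean of each pair. Psmd4, Psmd11 and Psma7 are higher in all tumour libraries, Psmb5 is low in all 4 C26-experiment libraries, Psmb8 and Psmb9 are low in KPC tumor libraries, and Psmb10 is lower in all tumour libraries.

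The immunoproteasome subunits did not follow the rest. Psmb10, which takes the place of Psmb7, is on chromosome 8 (105935735 to 105938444), and fell in the mean effect by 0.82 ± 0.11 on the log2 scale (SE; edgeR's quasi-likelihood test, adjusted p = 3.0e-05). LLC tumor libraries had 7.40 and 6.35 CPM, against 14.8 and 12.8 CPM in LLC control libraries. KPCML1 tumor libraries had 7.19 and 8.25 CPM and KPC tumor libraries 6.28 and 4.30 CPM, against 8.75 and 12.8 CPM in Matrigel control libraries. C26 tumor libraries had 6.51 and 6.10 CPM, against 12.2 and 10.5 CPM in C26 control libraries, and KPP tumor libraries 8.01 and 7.72 CPM, against 13.0 and 13.2 CPM in KPP control libraries. In CPM, every tumour library lay below every control library. In TPM the ranges overlapped, at 9.08 to 20.1 TPM in tumour libraries and 18.2 to 30.0 TPM in control libraries. KPCML1 tumor libraries (20.1 and 20.1 TPM) and LLC tumor 1 (19.3 TPM) lay above Matrigel control 1 (18.2 TPM). By model the log2 fold change was -1.01 in LLC, -0.48 in KPCML1, -1.02 in KPC, -0.84 in C26 and -0.74 in KPP, and all but KPCML1 (adjusted p = 0.20) were called. These single-model calls did not hold without LLC control 1 or LLC tumor 2, without Matrigel control 2 in KPC, without C26 control 1 or C26 tumor 2, or without any 1 of the 4 KPP libraries, those of LLC and C26 did not hold under library totals, and that of KPP did not hold without the filter on low counts or with the KPP libraries alone.

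Much of the Psmb10 signal came from transcripts that do not encode the protein. A median of 47.8% of its fragments were assigned to coding transcripts, and an antisense gene, Gm16156, overlaps it, and how Salmon treated strand is not stated, so reads of the pair may be mixed. The largest transcript in control groups was Psmb10-205, annotated with a retained intron, at 4.79 TPM in LLC tumor, 9.29 in KPCML1 tumor and 4.60 in KPC tumor libraries on average, with 5.76 TPM in C26 tumor and 7.48 TPM in KPP tumor. Control groups averaged 13.4 (LLC), 12.1 (Matrigel), 10.4 (C26) and 11.6 TPM (KPP). The coding transcript Psmb10-201 averaged 4.61, 4.25, 2.13, 5.37 and 3.57 TPM in tumour groups in the same order, against 4.75, 3.85, 5.25 and 5.58 TPM in control groups. With coding transcripts alone Psmb10 was still lower in the mean effect (-0.56 ± 0.10 SE; edgeR adjusted p = 0.00061), in KPC (-0.88) and in KPP (-0.70), but not called in LLC (-0.55; adjusted p = 0.12) or C26 (-0.43; adjusted p = 0.18).

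**Figure D4:**
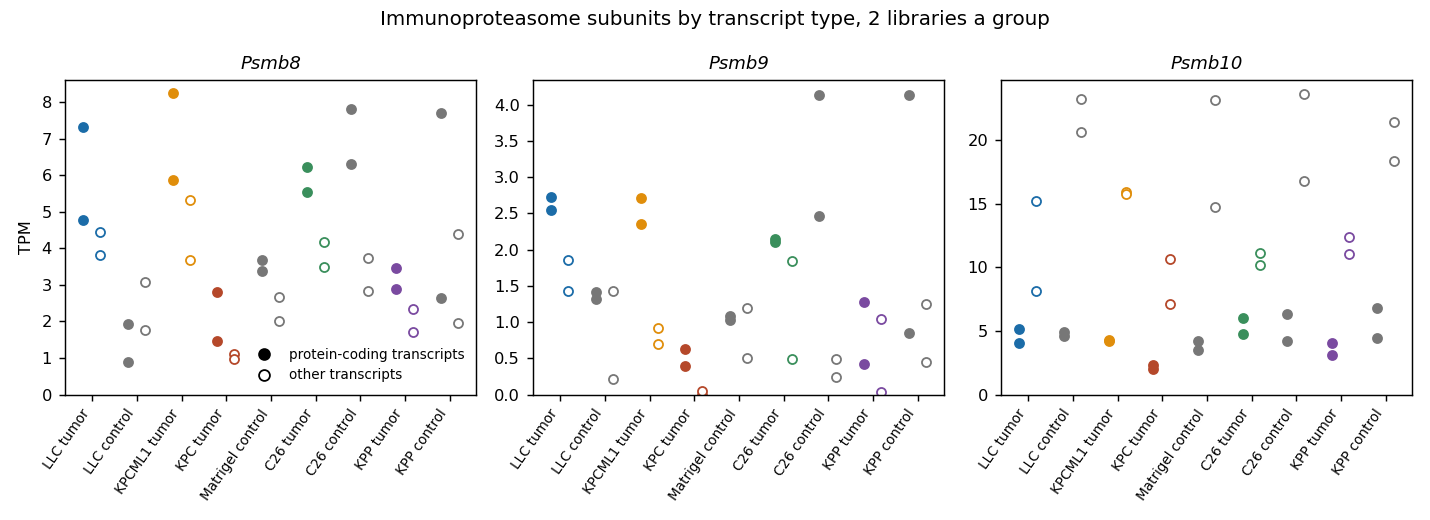
TPM of the protein-coding (filled) and other (open) transcripts of Psmb8, Psmb9 and Psmb10, 2 libraries per group, axes from 0. Other transcripts of Psmb10 are higher in control groups than in most tumour groups, while its coding transcripts overlap between tumour and control groups as a whole, and Psmb8 is low in KPC tumor libraries.

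Psmb8, the replacement of Psmb5, went in different directions. LLC tumor libraries had 7.04 and 7.25 CPM, against 4.80 and 3.49 CPM in LLC control libraries. KPCML1 tumor libraries had 7.28 and 7.46 CPM and KPC tumor libraries 2.83 and 2.02 CPM, against 5.02 and 5.02 CPM in Matrigel control libraries. C26 tumor libraries had 6.32 and 4.97 CPM, against 8.76 and 7.42 CPM in C26 control libraries, and KPP tumor libraries 4.54 and 3.66 CPM, against 8.98 and 4.89 CPM in KPP control libraries. In CPM, LLC and KPCML1 tumor libraries thus lay above their controls, and the other tumour libraries below theirs. In TPM the LLC, KPCML1 and KPC libraries kept this order, but C26 and KPP tumor libraries overlapped with their controls. KPP tumor libraries had 5.24 and 5.18 TPM, against 12.1 and 4.59 TPM in KPP control libraries. C26 tumor libraries had 9.73 and 9.72 TPM, against 11.6 and 9.16 TPM in C26 control libraries. The 5 tumour effects differed in the joint test (edgeR adjusted p = 0.014), which called 3 of 50 members and 8.3% of all tested genes. The effect in KPCML1 exceeded that in KPC by 1.60 ± 0.29 (SE; adjusted p = 0.012), where 5.99% of genes differed. LLC exceeded KPC by 1.83 ± 0.41 (adjusted p = 0.040; background 1.85%) and KPP by 1.55 ± 0.40 (adjusted p = 0.033; background 8.27%). Against their own controls, only KPC (-1.04 ± 0.29; adjusted p = 0.016) and KPP (-0.77 ± 0.28; adjusted p = 0.047) were called, and LLC stood at 0.79 ± 0.28 (adjusted p = 0.084). KPC was not called without either Matrigel control or KPC tumor 2, and KPP not without KPP control 1 (-0.26), KPP tumor 1 or KPP tumor 2. The KPP call also held under none of the 10 other settings tried (adjusted p of 0.054 to 0.21). The joint call held with each library left out. With coding transcripts alone, a median of 49.7% of its fragments, LLC was called at 1.53 ± 0.40 (adjusted p = 0.026), KPC was not, and the joint adjusted p was 0.031.

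Psmb9, the replacement of Psmb6, had few fragments and was lowest in KPC and KPP. KPC tumor libraries had 0.701 and 0.355 CPM and KPCML1 tumor libraries 2.54 and 2.94 CPM, against 1.69 and 2.35 CPM in Matrigel control libraries. KPP tumor libraries had 1.40 and 0.394 CPM, against 4.78 and 1.95 CPM in KPP control libraries. LLC tumor libraries had 2.90 and 2.90 CPM, against 2.84 and 1.99 CPM in LLC control libraries, and C26 tumor libraries 2.89 and 1.93 CPM, against 3.93 and 3.44 CPM in C26 control libraries. In CPM, both KPC and both KPP tumour libraries lay below their controls, and C26 tumor libraries did too. In TPM only the KPC tumor libraries did. KPP tumor libraries had 2.31 and 0.453 TPM, against 5.38 and 1.30 TPM in KPP control libraries. C26 tumor libraries had 3.95 and 2.64 TPM, against 4.63 and 2.71 TPM in C26 control libraries. Calls were made in KPC (-1.91 ± 0.55 SE; edgeR adjusted p = 0.019), in KPP (-1.95 ± 0.53; adjusted p = 0.011) and in the mean effect (-0.75 ± 0.25; adjusted p = 0.020). The KPCML1 effect exceeded the KPC effect by 2.35 ± 0.55 (adjusted p = 0.026). These rest on few fragments: the mean effect was not called without Matrigel control 2 (-0.65) or KPP control 1 (-0.59), KPC not without Matrigel control 2 or KPC tumor 2, and KPP not without KPP control 1 (-1.15) or KPP tumor 2 (-1.21). With length-scaled counts, Psmb9 was called in none of these 3, at -1.91 in KPC, -1.19 in KPP and -0.56 in the mean effect (adjusted p = 0.066, 0.19 and 0.17). With coding transcripts alone it was not called in KPC (-1.12) or in the mean effect (-0.62). Its joint adjusted p was 0.040, and it was above 0.05 with length-scaled counts (0.16) and with 12 of the 18 libraries left out singly. Psmb9 and Psmb8 flank Tap1, a peptide transporter gene, on chromosome 17 (34181987 to 34187764 on the minus strand and 34197721 to 34201454 on the plus strand). The annotated spans of Psmb9 and Tap1 overlap on opposite strands. How Salmon treated strand is not stated, so reads of these neighbours may be mixed. Tap1 stood at -1.90 ± 0.42 in KPP (adjusted p = 0.0031), -0.72 ± 0.41 in KPC, 0.57 ± 0.40 in KPCML1, 0.46 ± 0.40 in LLC and -0.48 ± 0.40 in C26.

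Relative to the subunits they replace, the immunoproteasome subunits were scarce in all groups. Psmb8 was 1.44 to 7.87% of Psmb5 in TPM in tumour libraries and 1.96 to 10.8% in control libraries. Psmb9 was 0.109 to 1.25% of Psmb6 in tumour libraries and 0.548 to 2.26% in control libraries. Psmb10 was 2.86 to 6.51% of Psmb7 in tumour libraries and 6.84 to 10.9% in control libraries, so that only for this pair did the ranges not overlap. With coding transcripts alone the last pair had 0.564 to 1.71% in tumour libraries and 1.31 to 2.47% in control libraries, which overlap. Immunoproteasome genes are known to be high in leukocytes. Summed leukocyte markers (10 genes) were 16.8 to 36.9 TPM in tumour libraries and 8.71 to 26.9 TPM in control libraries, with 3 of 8 tested markers higher in the mean effect. By model, the median log2 fold change of these 8 was 1.15 in KPCML1, 0.36 in LLC, 0.26 in C26, 0.14 in KPC and -0.61 in KPP. Tyrobp was called higher in KPCML1 and KPC, and Coro1a in KPCML1. In KPP, Ptprc (-1.30) and Laptm5 (-1.91) were called lower and Cd68 (1.77) higher. Summed neutrophil markers (6 genes) were 19.8 to 233 TPM in tumour libraries and 1.06 to 4.67 TPM in control libraries. The part of leukocytes or neutrophils in these results was not tested.

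The activators, caps that open the core without ubiquitin, split within a pair. Psme1 and Psme2 encode the partner subunits of the interferon-inducible activator and lie 5911 bases apart on chromosome 14. Psme1 fell in the mean effect by 0.74 ± 0.09 (SE; edgeR's quasi-likelihood test, adjusted p = 2.0e-05). LLC tumor libraries had 24.8 and 24.4 CPM, against 45.0 and 32.8 CPM in LLC control libraries. KPCML1 tumor libraries had 22.5 and 25.7 CPM and KPC tumor libraries 15.2 and 18.4 CPM, against 25.6 and 32.3 CPM in Matrigel control libraries. C26 tumor libraries had 26.04 and 19.9 CPM, against 44.2 and 39.4 CPM in C26 control libraries, and KPP tumor libraries 16.6 and 15.3 CPM, against 33.8 and 36.7 CPM in KPP control libraries. In CPM, the tumour libraries of every model other than KPCML1 lay below their controls without overlap. In TPM this held for KPC, C26 and KPP but not for LLC. LLC tumor libraries had 33.6 and 38.2 TPM, against 44.8 and 34.9 TPM in LLC control libraries. KPCML1 tumor libraries had 33.7 and 37.3 TPM, against 29.8 and 35.2 TPM in Matrigel control libraries. By model the effect was -1.15 ± 0.20 in KPP, -0.86 ± 0.19 in C26, -0.79 ± 0.19 in KPC and -0.66 ± 0.19 in LLC, all called, and -0.27 ± 0.19 in KPCML1 (adjusted p = 0.43). The KPP call held with each library left out. The others did not: LLC without LLC control 1 or either LLC tumor library, KPC without Matrigel control 2 or KPC tumor 1, C26 without C26 control 1 or C26 tumor 2. LLC was also not called without the filter on low counts, with length-scaled counts or under library totals (-0.39; adjusted p = 0.17). Psme2 ranged over 12.01, 24.4 and 34.1 CPM in tumour libraries, against 20.2, 25.7 and 29.3 CPM in control libraries (-0.08 ± 0.13 SE; adjusted p = 0.64).

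Psme3, a nuclear activator, ranged over 49.2, 64.0 and 86.2 CPM in tumour libraries, against 47.9, 55.5 and 60.1 CPM in control libraries (0.25 ± 0.09 SE; edgeR adjusted p = 0.026). That call did not hold without Matrigel control 1 or 2, KPCML1 tumor 2, C26 control 2 or KPP control 1, nor with length-scaled counts (0.16; adjusted p = 0.18) or without the filter on low counts (adjusted p = 0.052). Psme4, a large nuclear activator, ranged over 177, 320 and 470 CPM, against 249, 298 and 382 CPM in control libraries (-0.04 ± 0.09 SE; adjusted p = 0.75). It was called lower in KPP (-0.59 ± 0.19; adjusted p = 0.024), a call that did not hold without KPP control 1, KPP control 2 or KPP tumor 2 (-0.37), without the filter on low counts, with length-scaled counts or with the KPP libraries alone. Its effect was higher in LLC than in KPP by 0.97 ± 0.26 (adjusted p = 0.039). Psmf1, an inhibitor and regulator of the core, ranged over 10.2, 13.9 and 22.4 CPM in tumour libraries, against 8.91, 10.4 and 11.9 CPM in control libraries, and rose in the mean effect (0.47 ± 0.11 SE; adjusted p = 0.0019). Psmf1 was also called in KPP (0.89 ± 0.21), though not without KPP control 1, and in KPC (0.80 ± 0.21), though not without Matrigel control 2 or KPC tumor 2 (0.49), with the experiment alone or under library totals. Tumour and control libraries overlapped for all 3 genes.

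Assembly chaperones, which build the core and cap and then leave, mostly were not called in the mean effect. Pomp, which closes the beta ring during assembly, ranged over 60.5, 70.9 and 102 CPM in tumour libraries, against 57.9, 63.5 and 89.8 CPM in control libraries (0.18 ± 0.09 SE; edgeR adjusted p = 0.12). It was called at 0.28 under library totals. The chaperones of the cap base, Psmd5, Psmd9 and Psmd10, lay between -0.04 and 0.03 in the mean effect. Of the dimeric chaperones of the alpha ring, Psmg1, Psmg2 and Psmg3 were not called. Psmg4, their partner, was the exception, with 23.2 and 17.1 CPM in KPP tumor libraries, against 4.53 and 5.84 CPM in KPP control libraries. C26 tumor libraries had 12.1 and 11.8 CPM, against 7.68 and 9.08 CPM in C26 control libraries, and the other tumour libraries had 3.37 to 6.28 CPM, against 3.47 to 4.88 CPM in their controls. The KPP effect was 1.96 ± 0.26 (SE; adjusted p = 0.00015), a call that held with each library left out. The mean effect was 0.68 ± 0.13 (adjusted p = 0.00055). The differences of tumour effects, LLC minus KPP and KPCML1 minus KPP, were -1.50 ± 0.36 and -1.87 ± 0.37 (adjusted p = 0.026 for both). For KPCML1 minus KPP 3.47% of all genes differed. Psmg4 had a joint adjusted p of 0.034, which was above 0.05 with 12 of the 18 libraries left out singly and with length-scaled counts (0.057).

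The remaining members were of other kinds. Psma8, of the testis, had 0 to 3 fragments per library and Psmb11, of the thymus, 0 to 1, and neither was tested. Psme2b, a near copy of Psme2 whose reads are hard to assign, had at most 0.795 CPM, and Psmc3ip, a meiotic recombination factor that shares the name but is no subunit, at most 2.80 CPM. Neither was called in the mean effect, and Psme2b was called lower in KPP, a call that held with 2 of the 4 KPP libraries left out singly.

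Genes that work around the proteasome were counted from lists. Of 10 regulators of proteasome genes, 8 rose in the mean effect. Foxo1, a transcription factor of the atrophy programme, ranged over 20.4, 66.4 and 245 CPM in tumour libraries, against 10.3, 12.9 and 19.1 CPM in control libraries (2.39 ± 0.29 SE; edgeR adjusted p = 1.4e-05). Foxo3 (1.62 ± 0.18) and Akirin2 (0.73 ± 0.10), which carries proteasomes into the nucleus, also rose, while Nfe2l1 stood at -0.05 ± 0.08. Of the shuttle factors 6 of 7 rose, led by the autophagy receptor Sqstm1 (1.51 ± 0.13), and of p97 and its cofactors, which extract ubiquitin-bearing proteins, 9 of 10, led by Ubxn4 (1.40 ± 0.11) and Nploc4 (1.62 ± 0.13). Proteasome-bound enzymes and partners had 5 of 10 higher and 1 lower, with Txnl1 at 0.94 ± 0.11, Usp14 at 0.70 ± 0.08 and Zfand5 at 0.74 ± 0.11, and Sem1, a small cap subunit outside the symbol rule, at 0.01 ± 0.13. Background shares were 25.2% higher and 25.7% lower, as above.

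Of 18 antigen processing and interferon genes, 7 fell in the mean effect (background 25.7%) and the other 11 were not called, with a median log2 fold change of -0.37. Gbp3, an interferon-induced GTPase, ranged over 1.46, 2.48 and 8.03 CPM in tumour libraries, against 4.47, 5.07 and 7.29 CPM in control libraries (-0.96 ± 0.16 SE; edgeR adjusted p = 0.00018). Ifit3 (-1.11 ± 0.20), an effector of the interferon response, fell as well. By model, 10 of the list were called lower in KPP (background 19.3%), 8 in KPC (13.7%) and 2 in C26 (9.8%, which is near the share of the list), and 3 were called higher in LLC (7.39%). Its medians were -0.97 in KPP, -1.17 in KPC, -0.22 in C26, 0.49 in LLC and 0.19 in KPCML1. Psmb8, Psmb9, Psmb10, Psme1 and Psme2 are themselves interferon-induced, and they did not move together. Psme2 was called in no model. In LLC, Psmb10 and Psme1 were lower (-1.01 and -0.66), while Psmb8 stood at 0.79. Whether interferon had a part in these values was not tested. KPC and KPCML1 share their controls.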

How the data were processed

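TA muscle RNA gave 18 libraries, which per the labels were poly(A)-selected, directional and sequenced from both ends. Per the submitters' processing notes, reads were handled with bcl2fastq (2.20), FastQC, Salmon and DESeq2. No source used here states the strand setting or the other versions. The deposited files gave, for 140825 transcripts, the estimated counts of fragments, the TPM and the effective length (the usable length in bases), all as the authors' quantification left them.

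Transcripts were matched to GENCODE M21 (GRCm38); 867 did not match and held 0.412 to 0.685% of fragments. Estimated counts were summed per gene, rounded, filtered with filterByExpr and scaled by TMM in edgeR (4.0.16, R 4.3.3). 1 quasi-likelihood model of 9 groups (9 residual degrees of freedom) gave 16096 tested genes, and p values were adjusted by Benjamini and Hochberg over all of them, with calls under 0.05. CPM use the normalised library size. TPM served for levels between genes. The test was tried on simulated counts with known changes in the LLC tumor group. It called 26% of 100 2-fold changes and 71% of 100 4-fold changes, with 5 false calls among unchanged genes. A gene not called in a single model may thus still have changed. No other gene changed in the simulation, whereas the real LLC comparison called 1189 genes higher and 1002 lower. The simulated rates therefore need not hold for these data. Alternatives were RLE, DESeq2 (1.42.0), no filter, length-scaled counts, a replicate block, each experiment alone, no mitochondrial transcripts and each library left out. Library totals without TMM, protein-coding transcripts only and a crossed block were chosen after seeing the data. Intervals cover spread between libraries, which the labels call biological replicates.

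The members and lists were chosen with earlier results of these data known. Named in full were Psmb5 to Psmb10, Psme1 to Psme4, Psmf1 and Pomp, the 3 called members of smallest p in each direction of each comparison, and the 3 of smallest p in the joint test; other members named show the extremes of a class. The authors' own tables of comparisons were not used. Replicate numbers did not pair libraries: deviations of same-numbered libraries correlated at -0.172 to 0.093.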

Additional observations from a re-analysis of the deposited data

Results flagged for a closer look

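Psmb8 was picked out because its tumour effect differed among the 5 models in the joint test (edgeR adjusted p = 0.01377), with log2 fold changes of 0.79 in LLC, 0.55 in KPCML1, -1.04 in KPC, -0.52 in C26 and -0.77 in KPP. Psmg4 was picked out for the same reason (adjusted p = 0.03415), with 1.96 in KPP against 0.09 to 0.51 in the other models. Psmb9 was the third (adjusted p = 0.03993), with 0.26 in LLC, 0.44 in KPCML1, -1.91 in KPC, -0.61 in C26 and -1.95 in KPP. KPC and KPCML1 share their control libraries. The joint calls of Psmg4 and Psmb9 were each lost with 12 of the 18 libraries left out singly and with length-scaled counts (adjusted p = 0.057 and 0.16).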

How the results depend on the processing

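With 2 libraries a group, the model-by-model counts are the fragile values, and the mean effect the steadier one. The mean effect called 36 members, 34 to 39 with 1 library left out and 35 to 38 under the other settings. Leaving out 1 library gave 1 to 9 calls in LLC (17 with all), 0 to 8 in KPCML1 (4), 9 to 22 in KPC (29), 4 to 20 in C26 (19), 21 to 37 in KPP (37) and 1 to 4 in the joint test (3). Fitted alone, the 4 libraries of the LLC experiment gave 27 and those of KPP 24. The KPCML1, KPC and Matrigel control libraries, fitted together, gave 1 for KPCML1. Library totals without TMM gave 27 in LLC, 10 in KPCML1 and 30 in C26, beside 2576, 1354 and 3929 calls over all tested genes. DESeq2 gave 9 in KPCML1 and 10 in the joint test, no filter gave 10 and 9, and length-scaled counts gave 1 in the joint test. Apart from the replicate block, given next, other settings kept the counts within 1.5 times. No named log2 fold change that was called changed sign. In C26, calls over all genes fell with a library left out wherever those of the members fell. The cause of these shifts was not tested.

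The replicate number did not pair the libraries, and a replicate block gave 10 calls in LLC, 0 in KPCML1, 24 in KPC, 11 in C26, 30 in KPP, 35 in the mean effect and 2 in the joint test. Under it the joint call of Psmg4 was lost (adjusted p = 0.11), as were the mean call of Psme3 (0.071) and the single-model calls of Psmb5, Psmb8, Psme4 and Psmb10 in KPP, Psmb10 in C26, Psme1 in LLC and Psmc2, Psmd2 and Psmd4 in KPCML1 (0.053 to 0.099). Crossing the numbers in KPP, where same-numbered deviations ran against each other, gave 38. Depth limits Psmb9, Psme2b and Psmc3ip most.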
